A study of Arabidopsis thaliana with 12 samples.

Results

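The genes described here encode the cysteine-rich receptor-like kinases (CRKs) of Arabidopsis thaliana. The members were chosen by gene code: all rows of the deposited count table for CRK1 to CRK42 without CRK35, which are 41 of its 32678 genes. No measured value enters the rule, but the family itself was taken up with its chitin responses in these libraries known, so its counts and medians in the chitin comparisons are a description from which nothing further is read. Of the 41 members, 39 passed the expression filter, out of 20994 genes that did. CRK1 had 0 reads in the 12 libraries together, and CRK33 had 3 reads, so neither was tested.

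Messenger RNA was sequenced from whole seedlings grown for 8 days and then treated for 3 h with chitin, the polymer that stiffens fungal cell walls, or with mock. The 4 groups, with 3 libraries each, were Col-0 (wild type, written Col) with mock, Col with chitin, mapkkk5-1 (written mapkkk5) with mock and mapkkk5 with chitin. The design text gives the chitin dose as 40 mM and the treatment protocol as 40 µM, and which is right was not settled here. The design text speaks of 3 independent experiments, and libraries with the same replicate number are taken to come from the same experiment. The main fit does not use this pairing, and results with the experiment as a block are given as an alternative. The mapkkk5-1 line, the only mutant line in the labels, is named for MAPKKK5, a MAP kinase kinase kinase gene. Chitin was not combined with any other agent in the labels, and no transgene is named.

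A CRK has an extracellular part with DUF26 cysteine motifs, a membrane-spanning segment and a cytoplasmic protein kinase domain. The family is known for transcripts that respond to pathogens, salicylic acid and reactive oxygen, and several members have been tied to immune receptor complexes and to the production of reactive oxygen at the cell surface. In chitin sensing itself, the LysM receptor kinases CERK1 and LYK5 bind the polymer, and MAPKKK5 is known as a link from the receptor side to a MAP kinase cascade.

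The libraries held 15455836 to 20179428 counted reads, so that the upper limit for a gene with no read, 3 reads, was 0.152 to 0.200 CPM, for counting error only. CPM values are counts scaled to a common library total with TMM factors, and log2 differences are from edgeR's quasi-likelihood fit, given ± SE with n = 3 libraries per group. A gene is called higher or lower where its Benjamini-Hochberg adjusted p over all tested genes is below 0.05. MAPKKK5 was at 25.2 ± 3.19 CPM (SD, n = 3) in Col mock and 4.33 ± 0.831 CPM in mapkkk5 mock. The chitin groups had means of 40.9 ± 3.96 CPM (Col) and 24.4 ± 9.85 CPM (mapkkk5), a log2 difference of -0.75 that did not pass (adjusted p = 0.674, edgeR). All 6 leaf markers and all 8 root markers examined had reads in every library, as whole seedlings would give. The summed leaf markers ran from 13371 to 15189 CPM in Col mock and from 9437 to 10538 CPM in Col chitin. The summed root markers ran from 3651 to 5360 CPM in Col mock and from 1589 to 2941 CPM in Col chitin. Most of that sum is PYK10, a glucosidase of root cells (-1.05 ± 0.26), and the other 7 root markers summed to 159 to 202 CPM in Col mock and 167 to 180 CPM in Col chitin. Of the 8 root markers 3 were called lower in Col (PYK10, IRT1 and PRP3) and 2 higher (EXPA7 and SCR). The part of these shifts in the CRK results was not tested, and in whole seedlings fewer cells of a type and less RNA per cell cannot be told apart.

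Chitin raised most of the measured CRK transcripts in both genotypes. In Col, 30 of the 39 tested members were higher after 3 h, 19 of them at least 2-fold, 1 was lower and 8 were not called. Over all tested genes, 21.2% were called higher, 7.4% were called at least 2-fold higher and 17.3% were called lower. The median log2 difference was 0.94 over the members and 0.00 over all tested genes. In 30 members every Col chitin library lay above every Col mock library, a pattern found in 26.2% of all tested genes, and in 1 member every chitin library lay below, a pattern found in 23.2%. Summed over the family, the level went from 623 ± 7.49 CPM in Col mock to 1248 ± 129 CPM in Col chitin (SD, n = 3), and these groups did not overlap.

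In mapkkk5, 26 members were called higher with chitin, 18 of them at least 2-fold, none was called lower and 13 were not called. The background was 19.1% of all tested genes called higher, 6.61% called at least 2-fold higher and 15.7% called lower. All 26 were also called in Col, and the 18 raised at least 2-fold in mapkkk5 were raised at least 2-fold in Col too. The other 4 members called in Col were CRK9, CRK10, CRK12 and CRK24, whose differences in mapkkk5 were 0.32, 0.17, 0.25 and 0.53. For none of these 4 was the difference of the responses itself called. The family sum went from 589 ± 39.7 CPM in mapkkk5 mock to 1029 ± 133 CPM in mapkkk5 chitin. Across the 39 tested members the Col and mapkkk5 responses had a Pearson r of 0.94, a description in which the members share the same 12 libraries.

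**Figure D1:**
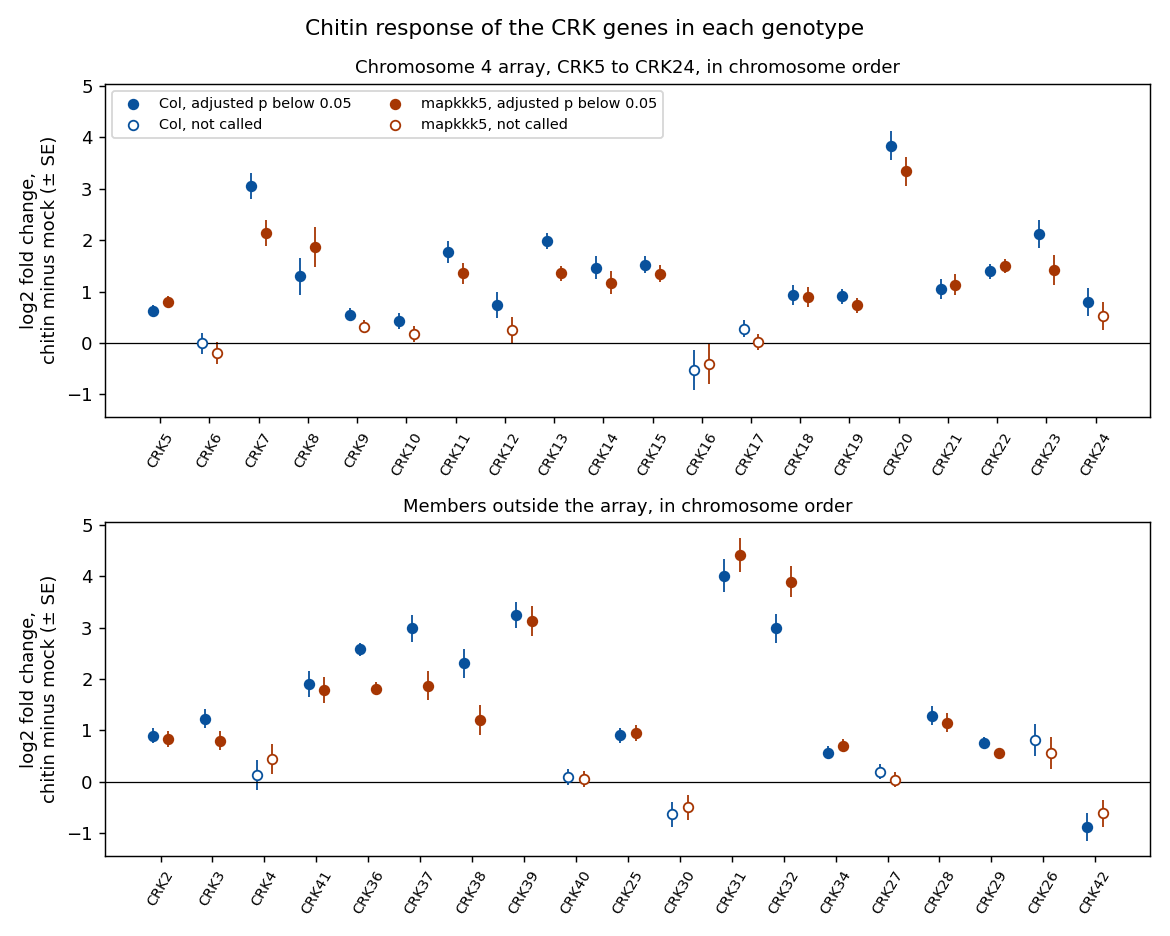
Log2 fold change with chitin (chitin minus mock, ± SE, vertical axis) for each tested CRK gene in chromosome order (horizontal axis), with the 20-gene array on chromosome 4 in the upper panel and the other members in the lower panel. Blue points are Col and orange points are mapkkk5, each from 3 libraries per group, and filled points have an adjusted p below 0.05. CRK31 has the highest value in each genotype (4.01 in Col and 4.42 in mapkkk5), CRK20 the highest in the array (3.84 in Col), and CRK6, CRK16, CRK30 and CRK42 lie below 0.

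The CRK genes are gathered on chromosome 4. In the RefSeq annotation of TAIR10.1, 36 of the 41 members lie on that chromosome, and members at most 50 kb apart form 5 clusters that hold 34 genes. The largest is the array of CRK5 to CRK24, 20 genes within 74.2 kb (chr4:12117491-12191704). The next are CRK36 to CRK40 within 61.2 kb (chr4:2231717-2292965) and CRK30 to CRK34 within 26.3 kb (chr4:6963521-6989793). CRK28 and CRK29 form a pair on chromosome 4, CRK2 and CRK3 a pair on chromosome 1, and 7 members stand alone.

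In the array, 17 of 20 genes were called higher in Col, 10 of them at least 2-fold, and 13 of 20 in mapkkk5, again 10 at least 2-fold. Outside the array, 13 of 19 tested members were called higher in Col, 9 of them at least 2-fold, and 1 was lower. The median log2 difference in Col was 0.99 in the array and 0.91 outside it. Within the array the Col values ran from -0.53 for CRK16 to 3.84 for CRK20, and genes with large and small values stood side by side. CRK6, at -0.01, is followed by CRK7 at 3.05, and CRK19, at 0.91, is followed by CRK20 at 3.84. The annotated genes at its ends were mixed: of 6 non-member genes, 3 on each side, 3 were expressed enough to be tested. GSH1, which encodes an enzyme of glutathione synthesis, was called higher (0.54) in Col, AT4G23340 was called lower (-1.09), and AT4G23330 was not called (0.40). None of the 3 non-member genes annotated inside the array was tested.

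The largest values in the array belonged to CRK20 and CRK7. CRK20 (AT4G23280), which has been linked to defence and cell death responses, was at 1.20, 0.884 and 1.17 CPM in the Col mock libraries of experiments 1, 2 and 3, and at 10.5, 17.5 and 19.0 CPM in the Col chitin libraries. The mapkkk5 libraries held 1.34, 1.31 and 0.999 CPM with mock and 9.89, 10.8 and 16.6 CPM with chitin. Every chitin library lay above every mock library, and the genotypes overlapped within each treatment. Its log2 difference was 3.84 ± 0.29 in Col, 14.3-fold, and 3.34 ± 0.29 in mapkkk5.

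CRK7 (AT4G23150), studied together with CRK6 in responses to reactive oxygen outside the cell, was at 5.47, 5.66 and 3.27 CPM in Col mock and at 29.96, 51.7 and 38.2 CPM in Col chitin. In mapkkk5 the values were 4.45, 5.02 and 3.69 CPM with mock and 14.7, 19.1 and 24.7 CPM with chitin. Chitin libraries were the higher ones in both genotypes, and with chitin all 3 Col libraries lay above all 3 mapkkk5 libraries. The rise was 3.05 ± 0.26 in Col, 8.30-fold, and 2.14 ± 0.26 in mapkkk5.

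CRK13 (AT4G23210), whose overexpression is known to increase resistance to bacteria, also lies in the array. It was at 14.4, 15.9 and 15.8 CPM in Col mock and at 49.6, 55.2 and 77.4 CPM in Col chitin, a rise of 1.98 ± 0.15. With mapkkk5 it was at 21.8, 17.6 and 21.2 CPM with mock and at 48.5, 50.9 and 55.4 CPM with chitin, a rise of 1.35 ± 0.15. The mapkkk5 mock libraries all lay above the Col mock libraries, and the chitin libraries of the genotypes overlapped. Of its exonic 50-base stretches 15.4% occur elsewhere in the genome, so reads from those stretches may have no unique place.

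The other called genes of the array spanned smaller values in Col. CRK23 (2.13 ± 0.27), CRK11 (1.77 ± 0.21), CRK15 (1.53 ± 0.16), CRK14 (1.46 ± 0.22), CRK22 (1.39 ± 0.14), CRK8 (1.295 ± 0.36) and CRK21 (1.05 ± 0.20) rose at least 2-fold. Of the exonic 50-base stretches, 16.5% of those of CRK8 and 16.2% of those of CRK22 occur elsewhere in the genome. CRK18, CRK19, CRK24, CRK12, CRK5, CRK9 and CRK10 rose by 0.94 down to 0.43. The calls of CRK10, CRK12 and CRK24 in Col were lost when any of several single libraries was left out. For CRK10 the adjusted p (edgeR) was 0.127 without Col chitin replicate 1, 0.116 without Col mock replicate 2, 0.066 without Col chitin replicate 2, 0.174 without Col mock replicate 3 and 0.0647 without Col chitin replicate 3. For CRK12 it was 0.0872 without Col mock replicate 1, 0.0994 without Col mock replicate 2 and 0.145 without Col chitin replicate 3. For CRK24 it was 0.0703, 0.0981 and 0.0515 without Col mock replicate 1, 2 or 3, and 0.101 and 0.106 without Col chitin replicate 2 or 3. CRK8 lost its call without Col mock replicate 2 (adjusted p = 0.057, edgeR). CRK6, CRK16 and CRK17 were not called, at -0.01, -0.53 and 0.28, and with the experiment as a block CRK17 was called higher (adjusted p = 0.0309, edgeR). Annotated exons of CRK16 and CRK17 overlap on the same strand and those of CRK10 and CRK11 on opposite strands, so reads there could have been counted for either gene or for neither.

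Some close relatives within the family differed in their responses, while others rose together. By the identity of their aligned coding sequences, 9 pairs of members are each other's nearest relatives, and in 3 of them, singled out after their values were seen, a gene with a large rise stands beside one with a small value. CRK39 and CRK40 share 86.1% of coding positions, and their log2 differences in Col were 3.25 ± 0.26 and 0.10 ± 0.16. CRK19 and CRK20 share 87.3%, with 0.91 ± 0.15 and 3.84 ± 0.29. CRK6 and CRK7 share 80.3%, with -0.01 ± 0.21 and 3.05 ± 0.26. In most of the other pairs both genes were called higher in Col. CRK31 and CRK32, at 84.1% identity, rose by 4.01 and 2.98, and CRK28 and CRK29, at 85.7%, by 1.29 and 0.75. CRK11 and CRK22, at 78.0%, rose by 1.77 and 1.39, and CRK12 and CRK14, at 71.5%, by 0.74 and 1.46. CRK2 and CRK3, at 59.5%, rose by 0.90 and 1.23. In the remaining pair, at 71.3%, CRK21 rose by 1.05 and CRK16 was not called (-0.53). No test was made between genes.

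In each of the 3 contrasting pairs the gene with the small response had the higher level in Col mock, compared per kb of exon. The pairs were picked by a difference from Col mock, so that choice itself favours a low mock level in the gene with the large rise. CRK40 was at 12.2 ± 1.61 CPM per kb and CRK39 at 0.492 ± 0.203 CPM per kb (SD, n = 3). CRK19 was at 14.97 ± 2.15 CPM per kb and CRK20 at 0.514 ± 0.0829 CPM per kb. CRK6 was at 11.2 ± 3.05 CPM per kb and CRK7 at 2.15 ± 0.593 CPM per kb. With chitin in Col, CRK7 reached 17.9 ± 4.92 CPM per kb and CRK6 stood at 11.1 ± 0.212 CPM per kb, whereas CRK20 (7.42 ± 2.16) stayed below CRK19 (28.1 ± 4.93) and CRK39 (4.68 ± 0.407) below CRK40 (13.0 ± 2.67). Reads of near-identical copies could have been divided or dropped: 22.0% of the exonic 50-base stretches of CRK6 occur elsewhere in the genome, 6.72% of those of CRK20, 5.38% of those of CRK39 and at most 4.43% of those of the other genes in these 3 pairs.

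**Figure D2:**
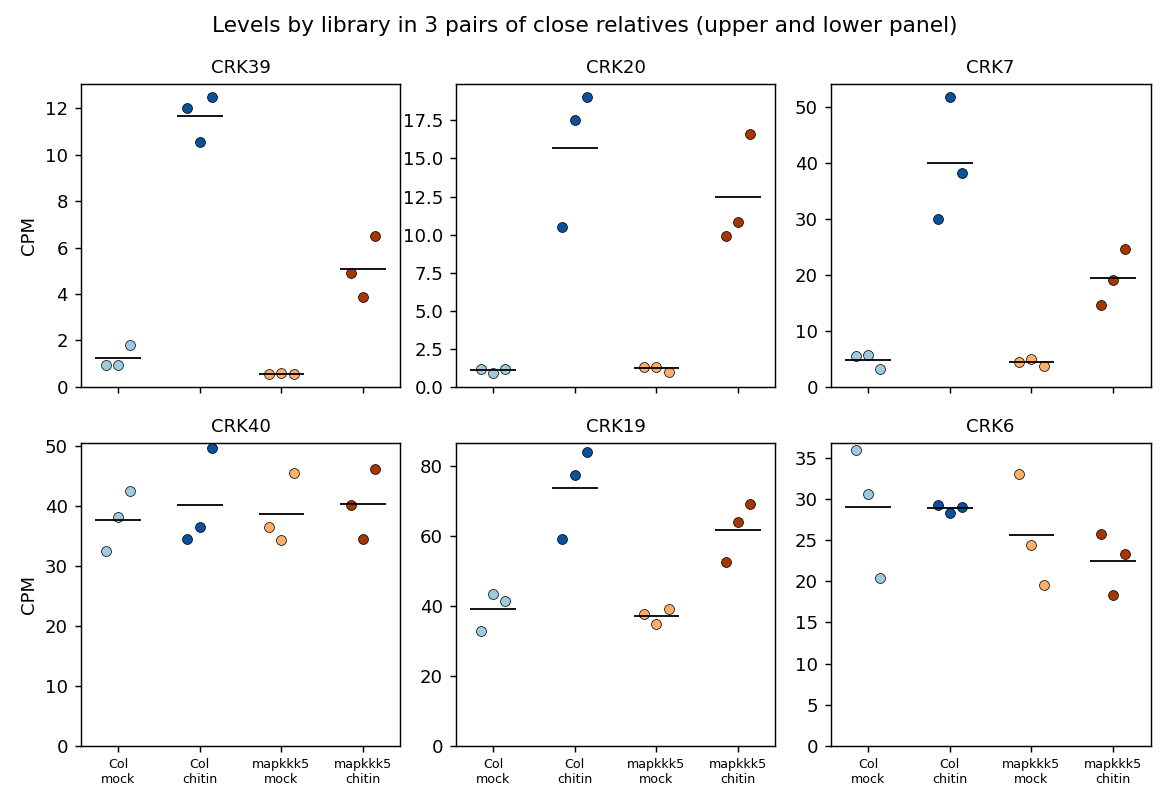
Level in each library (CPM, vertical axis, from 0) by group (horizontal axis) for 3 pairs of close relatives, each pair in 1 column. Points are libraries (3 per group) and lines are group means. CRK39, CRK20 and CRK7 in the upper row lie higher with chitin in both genotypes, while CRK40 and CRK6 overlap between mock and chitin and CRK19 rises from 39.2 to 73.7 CPM in Col.

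The upstream sequences of these 6 genes, and of CRK36, CRK37 and CRK38, are shown because the members that move together, and the relatives that do not, can be compared letter by letter. Each is the 250 bases before the annotated start of the gene on its own strand, 5′ to 3′, in RefSeq's TAIR10.1 assembly. Capitals mark TTGAC or its reverse complement GTCAA, the core of the W-box, the element that WRKY transcription factors are known to bind. CRK39 (chr4:2259248-2259497, plus strand) has 2 such matches that adjoin, and CRK40 (chr4:2288366-2288615, plus strand) has none, in a window that overlaps an annotated pseudogene, AT4G04560.
CRK39: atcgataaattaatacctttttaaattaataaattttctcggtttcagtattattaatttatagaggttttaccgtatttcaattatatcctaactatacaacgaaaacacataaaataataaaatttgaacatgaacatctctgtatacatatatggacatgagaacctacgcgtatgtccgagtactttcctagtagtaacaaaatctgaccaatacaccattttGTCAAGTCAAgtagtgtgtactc
CRK40: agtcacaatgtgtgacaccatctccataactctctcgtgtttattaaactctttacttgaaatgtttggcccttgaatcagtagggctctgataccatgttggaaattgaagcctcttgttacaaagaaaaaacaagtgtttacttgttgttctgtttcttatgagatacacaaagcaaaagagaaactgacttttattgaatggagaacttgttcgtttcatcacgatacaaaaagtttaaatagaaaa
CRK20 (chr4:12174483-12174732, plus strand) has 2 matches and CRK19 (chr4:12170705-12170954, plus strand) has none.
CRK20: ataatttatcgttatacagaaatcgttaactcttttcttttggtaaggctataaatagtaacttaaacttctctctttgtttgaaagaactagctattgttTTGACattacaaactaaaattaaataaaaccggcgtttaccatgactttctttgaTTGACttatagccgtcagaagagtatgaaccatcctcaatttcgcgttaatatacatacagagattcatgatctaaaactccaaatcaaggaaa
CRK19: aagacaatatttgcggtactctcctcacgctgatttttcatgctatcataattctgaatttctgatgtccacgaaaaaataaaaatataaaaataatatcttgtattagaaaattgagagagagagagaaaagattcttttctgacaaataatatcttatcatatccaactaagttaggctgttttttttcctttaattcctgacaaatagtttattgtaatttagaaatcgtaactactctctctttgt
CRK7 (chr4:12125414-12125663, plus strand) has 1 match and CRK6 (chr4:12121119-12121368, plus strand) has 2, so this pair does not follow the order of the other pairs.
CRK7: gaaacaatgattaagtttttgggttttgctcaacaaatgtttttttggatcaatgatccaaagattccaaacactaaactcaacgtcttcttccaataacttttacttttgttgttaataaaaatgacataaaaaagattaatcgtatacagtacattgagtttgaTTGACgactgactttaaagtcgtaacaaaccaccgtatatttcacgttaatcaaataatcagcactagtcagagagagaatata
CRK6: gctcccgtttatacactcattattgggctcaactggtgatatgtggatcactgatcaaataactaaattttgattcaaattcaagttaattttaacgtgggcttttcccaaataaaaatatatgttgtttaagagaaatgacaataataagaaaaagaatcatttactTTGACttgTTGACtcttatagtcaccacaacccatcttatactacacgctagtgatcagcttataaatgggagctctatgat
CRK36 (chr4:2234690-2234939, minus strand) has 1 match, CRK37 (chr4:2238120-2238369, plus strand) has 2 and CRK38 (chr4:2241822-2242071, plus strand) has 1.
CRK36: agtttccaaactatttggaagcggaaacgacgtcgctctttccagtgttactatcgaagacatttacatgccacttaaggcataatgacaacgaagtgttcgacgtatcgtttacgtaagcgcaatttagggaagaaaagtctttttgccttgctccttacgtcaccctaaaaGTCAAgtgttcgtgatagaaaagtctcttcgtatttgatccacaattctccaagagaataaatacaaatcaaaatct
CRK37: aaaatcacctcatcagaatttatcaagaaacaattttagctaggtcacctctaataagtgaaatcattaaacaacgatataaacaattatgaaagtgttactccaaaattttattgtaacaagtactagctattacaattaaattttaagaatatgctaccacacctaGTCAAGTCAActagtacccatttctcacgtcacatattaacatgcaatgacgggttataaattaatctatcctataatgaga
CRK38: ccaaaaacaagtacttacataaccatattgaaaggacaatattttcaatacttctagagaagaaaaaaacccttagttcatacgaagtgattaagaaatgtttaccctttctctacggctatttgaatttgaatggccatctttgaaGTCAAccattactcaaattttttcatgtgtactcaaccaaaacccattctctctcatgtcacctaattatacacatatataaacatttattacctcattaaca

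Over the family, 30 of 41 members (73.2%) had at least 1 match to TTGAC on either strand in that window, against 44.9% of 27443 protein-coding genes and 62.5% of the genes called at least 2-fold higher with chitin in Col. At least 2 matches were found in 41.5% of the members, in 14.1% of protein-coding genes and in 29.9% of the genes called at least 2-fold higher. Within the family the match did not divide the members by response: 14 of the 19 members raised at least 2-fold (73.7%) had one, and 15 of the other 20 tested members (75%). CRK11 had 6 matches, and no protein-coding gene had more. A match is a run of letters, not a shown binding site.

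The cluster of CRK30 to CRK34 held the member with the largest rise and a member with a value below 0. CRK31 (AT4G11470) was at 0.930, 0.354 and 1.23 CPM in Col mock and at 11.0, 14.7 and 15.2 CPM in Col chitin. The mapkkk5 libraries were at 0.445, 0.709 and 0.625 CPM with mock and at 10.8, 10.9 and 16.8 CPM with chitin. Every chitin library lay above every mock library, with the genotypes overlapping, and the rise was 16.1-fold in Col (4.01 ± 0.31) and 21.4-fold in mapkkk5 (4.42 ± 0.33).

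CRK32 (AT4G11480), its near relative, was at 0.656, 0.530 and 0.643 CPM in Col mock and at 3.57, 5.73 and 5.32 CPM in Col chitin. Those of mapkkk5 were at 0.390, 0.327 and 0.250 CPM with mock and at 3.99, 4.85 and 5.97 CPM with chitin. The mapkkk5 mock libraries were the lowest, all below the Col mock libraries, and the chitin libraries overlapped. The rise was 2.98 ± 0.28 in Col and 3.90 ± 0.31 in mapkkk5. CRK34 rose by 0.57 ± 0.12 in Col and 0.71 ± 0.12 in mapkkk5. CRK30 was at 18.3, 24.3 and 25.7 CPM in Col mock and 12.2, 11.7 and 19.9 CPM in Col chitin, a difference of -0.63 ± 0.24 that did not pass (adjusted p = 0.0547, edgeR). With the experiment as a block CRK30 was called lower in Col (adjusted p = 0.000424, edgeR) and in mapkkk5 (adjusted p = 0.00454), and DESeq2 called it lower in Col (adjusted p = 0.0279).

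In the cluster of CRK36 to CRK40, 4 genes rose and CRK40 did not pass. CRK39 (AT4G04540) was at 0.930, 0.943 and 1.81 CPM in Col mock and at 12.03, 10.5 and 12.5 CPM in Col chitin. The mapkkk5 values were 0.557, 0.6001 and 0.562 CPM with mock and 4.89, 3.89 and 6.48 CPM with chitin. The mapkkk5 libraries lay below the Col libraries in both treatments, without overlap, and chitin lay above mock in both genotypes. The rise was 3.25 ± 0.26 in Col, 9.49-fold, and 3.13 ± 0.30 in mapkkk5, 8.77-fold.

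CRK36 (AT4G04490), known from abscisic acid signalling together with CRK45 and from a complex with the immune kinase BIK1, was at 6.62, 6.07 and 6.90 CPM in Col mock and at 35.5, 43.9 and 37.5 CPM in Col chitin. In the mutant line it was at 5.96, 5.89 and 4.93 CPM with mock and at 17.7, 20.7 and 20.6 CPM with chitin. The 4 groups did not overlap, in the order Col chitin, mapkkk5 chitin, Col mock, mapkkk5 mock. The rise was 2.58 ± 0.13 in Col, 5.96-fold, and 1.81 ± 0.13 in mapkkk5, 3.51-fold.

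CRK37 (AT4G04500) was at 2.57, 1.24 and 1.64 CPM in Col mock and at 13.0, 18.7 and 11.9 CPM in Col chitin. The mapkkk5 libraries gave 1.78, 2.02 and 1.37 CPM with mock and 6.06, 5.36 and 7.69 CPM with chitin. The mock libraries of the genotypes overlapped and the chitin libraries did not. The rise was 2.99 ± 0.27 in Col and 1.87 ± 0.27 in mapkkk5. CRK38 (AT4G04510) was at 2.79, 1.89 and 1.99 CPM in Col mock and at 10.5, 12.7 and 9.94 CPM in Col chitin. In mapkkk5 it was at 2.95, 1.96 and 0.999 CPM with mock and at 4.31, 4.51 and 4.93 CPM with chitin. Its mock libraries also overlapped between the genotypes while its chitin libraries did not, and the rise was 2.30 ± 0.28 in Col and 1.20 ± 0.29 in mapkkk5. CRK40 (AT4G04570), in contrast, lay between 32.5 and 49.8 CPM in all 12 libraries, with 4 overlapping groups. The identity of coding sequences among CRK36 to CRK39 was 68.8% to 72.3%, and at most 0.987% of the exonic 50-base stretches of CRK36, CRK37 and CRK38 occur elsewhere in the genome.

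**Figure D3:**
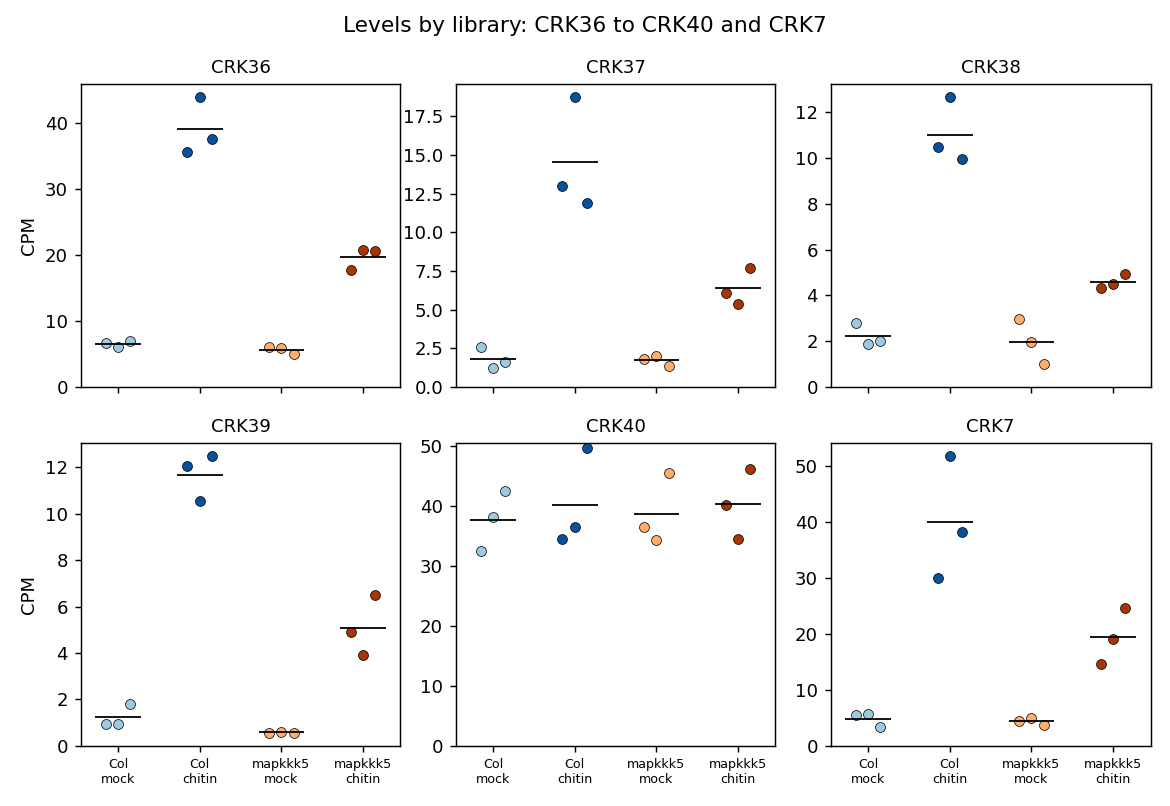
Level in each library (CPM, vertical axis, from 0) by group (horizontal axis) for CRK36 to CRK40, neighbours on chromosome 4, and CRK7 of the large array. Points are libraries (3 per group) and lines are group means. In CRK36 to CRK39 and CRK7 the mapkkk5 chitin libraries lie below all Col chitin libraries, while CRK40 lies between 32.5 and 49.8 CPM throughout.

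Outside the 3 larger clusters, 6 members were called higher in each genotype, each less than 4-fold. CRK28, known to associate with the immune receptors FLS2 and BAK1, rose by 1.29 ± 0.19 in Col and 1.15 ± 0.18 in mapkkk5. CRK29 rose by 0.75 ± 0.11 and 0.56 ± 0.11. The annotated exons of CRK28 and CRK29 overlap on the same strand, as do those of CRK29 and AT4G03065, so reads there could have been divided or left out. CRK2, a kinase known to phosphorylate the oxidase RBOHD, rose by 0.90 ± 0.15 and 0.83 ± 0.15, and its neighbour CRK3 by 1.23 ± 0.18 and 0.80 ± 0.18. CRK41 rose by 1.90 ± 0.25 and 1.79 ± 0.25, and CRK25 by 0.91 ± 0.15 and 0.95 ± 0.15. CRK4, CRK26 and CRK27 were not called in either genotype, though CRK26 (0.82 ± 0.31) was called higher in Col with the experiment as a block (adjusted p = 0.0096, edgeR). The same fit called CRK9 higher in mapkkk5 (adjusted p = 0.00988).

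CRK42 (AT5G40380), on chromosome 5, was the only member called lower with chitin in Col. It was at 5.91, 6.54 and 8.88 CPM in Col mock and at 2.88, 2.80 and 5.78 CPM in Col chitin, without overlap, a difference of -0.88 ± 0.27 (adjusted p = 0.0191, edgeR). The mapkkk5 libraries were at 8.07, 6.33 and 9.24 CPM with mock and at 5.63, 4.63 and 5.16 CPM with chitin, again without overlap. The difference of -0.61 ± 0.26 did not pass (adjusted p = 0.0844, edgeR). In Col the adjusted p (edgeR) was 0.0794 without Col chitin replicate 1, 0.0814 without Col chitin replicate 2 and 0.0868 without Col mock replicate 3, so the call needs each of these libraries. An antisense gene, AT5G40382, overlaps its exons, and reads of both cannot be told apart if strand was not used in counting. With the experiment as a block CRK42 was called lower in mapkkk5 as well (adjusted p = 0.0158, edgeR).

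Levels between members can be compared per kb of annotated exon. CRK9, annotated with a single coding exon of 798 bases where the other members have 1587 to 3132 coding bases, had the highest level in Col mock, at 35.4 ± 2.17 CPM per kb (SD, n = 3). CRK29 followed at 16.7 ± 0.535, CRK2 at 15.3 ± 1.21, CRK19 at 14.97 ± 2.15 and CRK22 at 13.7 ± 0.576 CPM per kb. Among these 4 followers, neighbours in the order differed by less than the larger SD of the pair, apart from CRK29 and CRK2 whose gap of means exceeded it slightly. With chitin in Col, CRK9 was still highest at 52.0 ± 4.71 CPM per kb, then CRK22 at 35.9 ± 7.80 and CRK11 at 29.5 ± 0.679 CPM per kb. Reads in the repeated stretches of CRK22 could have been divided or dropped. The members with the largest fold rises had low levels per kb in mock: CRK31 was at 0.359 ± 0.191 and CRK32 at 0.275 ± 0.0311 CPM per kb in Col mock. A fold rise is taken over the mock level, so picking members by it favours low mock levels.

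Relatives of the CRKs outside the member list, and known partners, were read from the same fit. The other DUF26 receptor kinases, CRK43, CRK44 and CRK45, were all called higher in both genotypes, with CRK45 at 2.19 ± 0.19 in Col and 1.66 ± 0.19 in mapkkk5. The plasmodesmata-located proteins (PDLPs) carry DUF26 motifs without a kinase domain, and of these 8 genes 1 was called higher and 2 lower in Col. PDLP5, known to restrict movement through plasmodesmata in salicylic acid responses, was the one raised (1.62 ± 0.17), and PDLP2 (-0.82 ± 0.10) and PDLP3 (-0.87 ± 0.12) were lower. In mapkkk5, PDLP5 (1.66 ± 0.18) was again called higher, and PDLP2, PDLP3 and PDLP6 (-0.48 ± 0.13) were called lower. Of 8 immune partners, 7 were called higher in Col and 6 in mapkkk5, with no call lower. The chitin receptor kinases LYK5 (1.303 ± 0.18) and CERK1 (0.97 ± 0.14), the co-receptor BAK1 (1.096 ± 0.10), the oxidase RBOHD (0.72 ± 0.13), the kinase BIK1 (0.65 ± 0.11), the flagellin receptor FLS2 (0.60 ± 0.16) and the oxidase RBOHF (0.57 ± 0.09) rose in Col. The kinase PBL27, known to act between CERK1 and MAPKKK5, was not called (0.06 ± 0.13).

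Between the genotypes, mock-treated seedlings showed no called difference in any member. Over all tested genes, 0.0191% were called in either direction. At an unadjusted p below 0.05 there were 4 members, against 463 genes (2.21%), and DESeq2 called no member either. CRK39 was lower in mapkkk5 by -1.09 ± 0.34 (unadjusted p = 0.00643, adjusted p = 1, edgeR). CRK25 (AT4G05200), the member with the next smallest p, was at 8.04, 9.08 and 9.70 CPM in Col mock and 7.68, 6.16 and 6.31 CPM in mapkkk5 mock. Its groups did not overlap, with a difference of -0.41 ± 0.15 (unadjusted p = 0.0173, adjusted p = 1, edgeR). With chitin CRK25 was at 14.4, 17.1 and 18.7 CPM in Col and at 12.9, 11.5 and 14.6 CPM in mapkkk5, and these groups overlapped. A gene on the opposite strand, AT4G05190, overlaps exons of CRK25, so reads there could have been counted for either gene or for neither. The other 2 members were CRK32 (-0.90 ± 0.37) and CRK13 (0.39 ± 0.15). In mock 6 members had all mapkkk5 libraries below all Col libraries, a pattern found in 3.97% of all tested genes, and 1 had them all above, as 4.13% did.

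With chitin, 1 member was called lower in mapkkk5 than in Col, CRK36, and none higher. Of all tested genes, 0.0619% were called lower and 0.00953% higher. The difference for CRK36 was -0.99 ± 0.12 (unadjusted p = 9.73e-07, adjusted p = 0.00292, edgeR), and it was lower in each of the 3 experiments, by -0.99, -1.07 and -0.85 on the log2 scale. The call held in each of the 12 fits that left out a single library, and was lost without the 4 libraries of experiment 1 (adjusted p = 0.299, edgeR) or of experiment 2 (adjusted p = 0.304).

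The 3 neighbours CRK37, CRK38 and CRK39 had differences of like or larger size without a call in the fit of groups alone. They were -1.19 ± 0.24 for CRK37 (adjusted p = 0.146, edgeR), -1.26 ± 0.26 for CRK38 (adjusted p = 0.154) and -1.20 ± 0.22 for CRK39 (adjusted p = 0.0993). In the large array CRK7 (-1.04 ± 0.23, adjusted p = 0.235) and CRK23 (-1.08 ± 0.25, adjusted p = 0.269) were of similar size. CRK40 differed by -0.0012 ± 0.16. With the experiment as a block, 5 members were called lower: CRK36 (adjusted p = 0.000441), CRK37 (0.0365), CRK38 (0.0245), CRK39 (0.00359) and CRK7 (0.0294). DESeq2 called the same 5 genes, with adjusted p-values of 3.76e-09, 0.00375, 0.00201, 0.00186 and 0.0128 in that order. CRK39 was also called without Col mock replicate 3 (adjusted p = 0.0295, edgeR) and CRK38 without mapkkk5 mock replicate 3 (adjusted p = 0.0338, edgeR).

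Over the family, 35 of the 39 tested members had a value below 0 in mapkkk5 with chitin, against 52.4% of all tested genes, and 32 to 35 did with the other scalings, tools and the block. The family was taken up with its chitin responses known, and this comparison uses the same Col chitin libraries. The counts and medians here are therefore a description, in which the members share libraries. The median was -0.25 over the members and -0.01 over all tested genes. With a library or an experiment left out, 29 to 37 members were below 0 and the median ran from -0.39, without mapkkk5 chitin replicate 3, to -0.17, without Col chitin replicate 3. At an unadjusted p below 0.05 there were 11 members, each lower in mapkkk5, against 3.69% of all tested genes lower at that p. In 12 members every mapkkk5 chitin library lay below every Col chitin library, as in 5.62% of all tested genes, and in no member did they all lie above, as in 3.69%. In the array, 19 of 20 genes were below 0 (median -0.31), with none called in the fit of groups alone and CRK7 called with the block and by DESeq2. Experiment by experiment, 22 members were lower in mapkkk5 in each of the 3, and 1, CRK5, was higher in each. Over all tested genes, 19% were lower in each of the 3 and 15.2% higher in each. The 35 tested members other than CRK36 to CRK39 had a median of -0.23, from -1.08 to 0.41, and 31 of them were below 0.

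Other gene lists were read for the same comparison. All 8 immune partners had values below 0 in mapkkk5 with chitin (median -0.22), 3 of them without overlap between the genotypes and none called. Of the 8 root markers 7 were below 0 (median -0.15), with sums of 1442 to 2154 CPM in mapkkk5 chitin that overlapped those of Col chitin. Of the 6 leaf markers 3 were below 0, and their sums (10105 to 11843 CPM in mapkkk5 chitin) overlapped as well. Summed over 4 seed storage genes, the Col chitin libraries were at 0, 0.133 and 0.203 CPM and the mapkkk5 chitin libraries at 0.159, 18.7 and 76.5 CPM. With mock the same sums were 20.2, 0 and 0.292 CPM in Col and 28.1, 0.109 and 70.8 CPM in mapkkk5. The part of these in the CRK differences was not tested.

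**Figure D4:**
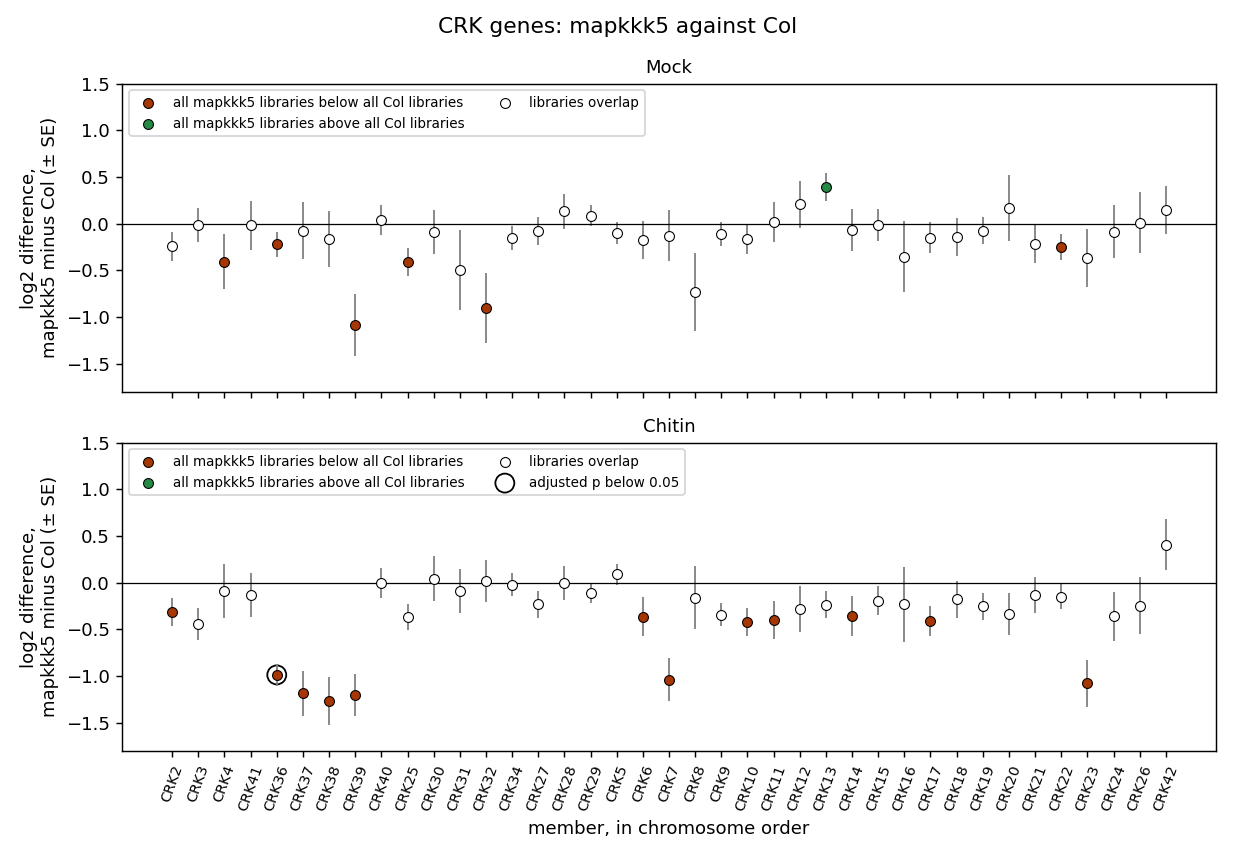
Log2 difference between the genotypes (mapkkk5 minus Col, ± SE, vertical axis) for each tested CRK gene in chromosome order (horizontal axis), in mock (upper panel) and chitin (lower panel), from 3 libraries per group. Orange points have all mapkkk5 libraries below all Col libraries, green points have them all above, open points overlap, and the large ring marks an adjusted p below 0.05. In chitin CRK36 carries the ring at -0.99, and CRK37, CRK38, CRK39, CRK7 and CRK23 lie between -1.26 and -1.04 without it.

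Whether the chitin response itself differed between the genotypes was tested as the difference of the 2 log2 responses. No member and no gene of the 20994 was called by edgeR in the fit of groups alone. With the experiment as a block 2 genes were called lower, and 1 with no expression filter. Some fits with libraries left out also called genes, and in none of these fits was a member called. At an unadjusted p below 0.05 there were 5 members, against 275 genes (1.31%), and DESeq2 called 4 genes, none of them a member. The 5 members were CRK36 (-0.77 ± 0.18, unadjusted p = 0.000791), CRK13 (-0.63 ± 0.21, unadjusted p = 0.01), CRK37 (-1.11 ± 0.39), CRK38 (-1.10 ± 0.40) and CRK7 (-0.91 ± 0.36), each with the smaller response in mapkkk5 and an adjusted p of 1.00 (edgeR). For CRK36 the response was smaller in each experiment, by -0.85, -1.03 and -0.40. For CRK13 the values were -0.61, -0.26 and -0.89, with its mapkkk5 mock level above and its mapkkk5 chitin level below that of Col. For CRK39 the difference of responses was -0.11 ± 0.44, since it was lower in mapkkk5 in both treatments. Of the 39 tested members 27 had the smaller response in mapkkk5, and 52.2% of all tested genes had a value below 0. In 14 members the response was smaller in each of the 3 experiments, and in 2, CRK5 and CRK32, it was larger in each, against 13.5% of all tested genes smaller and 11.3% larger in each. These family counts, too, are a description, since the difference reuses the Col chitin response known when the family was taken up. The largest value above 0 was that of CRK32, 0.91 ± 0.44 (unadjusted p = 0.0562, edgeR).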

How the data were processed

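The authors deposited a table of raw counts of reads per gene for the 12 libraries, with no normalization. Per the labels' protocols, libraries came from poly(A)-enriched RNA of seedlings with a directional kit. The tools HTSeq 0.6.1, TopHat2 2.0.10, cutadapt 1.5 and CASAVA 1.8.2 and the build TAIR10 are listed, without settings, in the submitters' processing notes. No source used here gives the strand mode or the handling of overlapping genes, so values of near-identical or overlapping CRK genes are uncertain to that extent. Depth was 15455836 to 20179428 counts per library.

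The counts were analysed with edgeR 4.0.16 in R 4.3.3: filterByExpr on the 4 groups (20994 of 32678 genes kept), TMM factors (0.971 to 1.034), 1 quasi-likelihood model of the 4 groups over all 12 libraries (8 residual degrees of freedom), and Benjamini-Hochberg adjustment over all genes kept, with calls at an adjusted p below 0.05. SE is the absolute log2 difference divided by the square root of F. Differences are chitin minus mock and mapkkk5 minus Col. Differences within an experiment used log2(CPM + 0.5). Samples were grouped by their titles. No library was a copy of another: within groups, all 12 pairs gave chi-square values of 11.1 to 27.4 per degree of freedom. Replicate numbers were taken to mark shared experiments: between groups that a comparison sets side by side, deviations from the group means correlated above 0.1 in all 12 same-numbered pairs (0.156 to 0.509). Over all group pairs 17 of 18 did, the other being -0.042 between Col mock and mapkkk5 chitin. The design text calls the 3 experiments independent. The fit was tested on simulated counts with known changes, most but not all of which it called. These changes were placed only in genes above a limit on the mean level, and no effect of the experiment was simulated. How the fit does for members of low level was therefore not tested.

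Positions, exons and coding sequences are from RefSeq's TAIR10.1, whose nuclear genes matched 31912 identifiers and all 41 members; the table gives no coordinates. Identity is the number of matching bases in a global alignment of a pair of coding sequences, as a percentage of the longer sequence (Biopython 1.88). Differences in length therefore lower it. The members and the gene lists were chosen with earlier results of these data known. By the rule for named genes, every library's values are given for the 8 largest called rises, the called falls (at most 4) in Col, and the 2 members with the smallest p in each genotype comparison and in the difference of responses; CRK40, CRK30, the pairs of relatives and the named root markers were added after values were seen. Alternatives were RLE and upper-quartile factors, no expression filter, DESeq2 1.42.0, the experiment as a block, a 2-fold limit, and leaving out each library or each experiment.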

Additional observations from a re-analysis of the deposited data

How the results depend on the processing

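Over the 39 tested members and 5 comparisons, 58 differences were called, none of which changed sign under any alternative, and 11 lost the call under at least 1. Of the 137 not called, 12 gained a call under at least 1 alternative, among them CRK30 in Col in 10 of 20, and 56, CRK40 among them, changed sign. For chitin in Col, 30 members were called higher with all libraries and 24 to 31 when a library or an experiment was left out, 27 with upper-quartile factors, 32 with the replicate block and 19 with a 2-fold limit as well. Called lower in Col were 1 member in the main analysis, 2 with RLE factors, with upper-quartile factors, with no expression filter, with DESeq2 and with the replicate block, 0 with the 2-fold limit and 0 to 2 in the leave-outs. For chitin in mapkkk5, 26 were called higher (23 to 28 in the leave-outs) and 0 lower, against 1 with upper-quartile factors, 2 with the replicate block and 0 to 1 in the leave-outs. With chitin, mapkkk5 was lower than Col in 1 member, in 5 with DESeq2, 5 with the replicate block, 0 with the 2-fold limit and 0 to 2 in the leave-outs. The cause of these shifts was not tested, other than that the 2-fold limit removes smaller changes by construction. Upper-quartile factors moved the median of all tested genes to -0.11 for chitin in Col and -0.09 in mapkkk5, with 3583 genes higher and 5017 lower in Col against 4458 and 3625 with TMM. They left 32 of 39 members below 0 for mapkkk5 against Col in chitin. With chitin, 2 genes of the whole table were called higher and 13 lower in mapkkk5 than in Col, against 7 and 54 with DESeq2 and 11 and 85 with the replicate block. With mock the counts were 2 and 2, against 3 and 4 with DESeq2 and 2 and 5 with the block. Without experiment 2, calls were lost in Col for CRK8, CRK9, CRK10, CRK12, CRK18, CRK24 and CRK42, in mapkkk5 for CRK18, CRK29 and CRK38, and between genotypes for CRK36. Few reads limit the precision of members such as CRK8, whose group means were 0.510 to 2.11 CPM.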
